A study of Homo sapiens with 9 samples.

Results

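The genes described here are those encoding the RSK, MSK and MNK protein kinases, which are phosphorylated by ERK. They were taken by gene symbol and number 8 of the 58735 genes counted. The RSK genes are RPS6KA1 (RSK1), RPS6KA3 (RSK2), RPS6KA2 (RSK3) and RPS6KA6 (RSK4), the MSK genes are RPS6KA5 (MSK1) and RPS6KA4 (MSK2), and the MNK genes are MKNK1 (MNK1) and MKNK2 (MNK2). RNA-Seq was performed on MIA PaCa-2, an established human pancreatic cancer cell line, labelled wild type and grown in medium with fetal bovine and horse serum. Cells were treated for 24 h with 0.1% dimethyl sulfoxide (DMSO, the vehicle), with compound 1 at 1 μM, an inhibitor of TBK1 and IKKε, or with SCH772984 at 1 μM, an inhibitor of ERK, and each treatment had 3 libraries of total RNA. The labels do not say whether the 3 libraries came from separate cultures, so the p-values measure the spread between these libraries, which may be technical. All libraries are from 1 cell line at 1 dose and 1 time.

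RSK, MSK and MNK are the kinases through which ERK reaches much of the cell beyond its direct substrates. RSK acts in the cytoplasm and nucleus on translation, survival and cell cycle proteins, MSK acts in the nucleus on CREB and histone H3 at immediate early genes, and MNK binds the scaffold eIF4G and phosphorylates the cap-binding protein eIF4E. MSK and MNK are also activated by p38 kinases. The inhibitors act on kinase activity, whereas the counts measure the mRNA of each kinase. The comparisons below therefore ask how the mRNAs of these ERK substrates stood after ERK inhibition and after TBK1 and IKKε inhibition.

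Total counts per library ranged from 9464432 to 13887859, and the median standard error of a log2 fold change over all genes tested was 0.12 with SCH772984 and also with compound 1. Compound 1 replicate 1 stood apart from its group, with a chi-square over genes, divided by its degrees of freedom, of 10.1 and 7.61 against replicates 2 and 3, compared with 2.66 between those 2 libraries, 2.34 to 3.15 among DMSO libraries and 4.03 to 6.40 among SCH772984 libraries. Results with compound 1 are given without this library where that changed a call. The 4 markers of the line, KRT8, KRT18, KRT19 and VIM, were detected in every library. Their summed level was 5874 to 6248 CPM (counts scaled to a common library total and TMM-normalized) with DMSO, 5448 to 6625 with compound 1 and 3212 to 3517 with SCH772984. With SCH772984, KRT8 fell 3.24-fold, KRT18 fell 5.29-fold and VIM fell 1.17-fold, while KRT19 was not called (log2 fold change 0.11, adjusted p = 0.149). Of 4 fibroblast markers, DCN and LUM had 0 counts with DMSO and at most 1 count in a library with SCH772984, COL1A2 was higher with SCH772984 (984 to 1114 CPM, against 458 to 507 with DMSO), and so was PDGFRB (5.40 to 6.82 CPM, against at most 2 counts in a DMSO library). Of 4 leukocyte markers, PTPRC and CD3E had 0 counts in all libraries, CD68 had at most 1 count, and CD14 was lower with SCH772984 (0.760 to 1.48 CPM, against 2.36 to 3.06 with DMSO). Of 3 endothelial markers, PECAM1 had at most 1 count and VWF at most 4 counts in a library, while CDH5 was at 2.87 to 4.42 CPM with DMSO, 6.24 to 6.78 with compound 1 and 0 to 0.269 with SCH772984. All 4 acinar markers had 0 counts, and the 3 endocrine markers had at most 2 counts in a library. The part of these marker changes in the results below was not tested. In bulk RNA a change in the share of cells and a change in RNA per cell cannot be told apart.

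With SCH772984, 4 of the 7 kinase genes that had enough counts to be tested were upregulated against DMSO and 3 were downregulated, with the quasi-likelihood test of edgeR at an adjusted p under 0.05 (n = 3 libraries each). The share of all 13834 tested genes called was 72.8%, with 37.2% higher and 35.5% lower, so a call is in itself common in this comparison and the sizes and directions carry the description. MKNK2 rose the most, 4.21-fold, and RPS6KA4 fell the most, 2.37-fold. In the RSK and MSK families the abundant genes fell and a scarce gene rose, whereas both MNK genes rose. With compound 1, 0 of the 7 genes were called at an adjusted p under 0.05, with edgeR or with DESeq2, where 0.864% of the 12849 tested genes were called. At an unadjusted p under 0.05, 0 of the 7 were higher and 1 was lower, against 7.35% and 7.69% of all tested genes. RPS6KA6 was not tested in any comparison.

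The sequences upstream of MKNK2 and RPS6KA4 are shown because these genes had the largest rise and the largest fall. Each is the 250 bases before the RefSeq start of the gene (GRCh38.p14), written 5′ to 3′ on the strand of the gene, at chr19:2051245-2051494 on the minus strand for MKNK2 and at chr11:64358912-64359161 on the plus strand for RPS6KA4. Capitals mark the TATA box letters TATAAA in MKNK2 and the AP-1 letters TGACTCA in RPS6KA4.
MKNK2: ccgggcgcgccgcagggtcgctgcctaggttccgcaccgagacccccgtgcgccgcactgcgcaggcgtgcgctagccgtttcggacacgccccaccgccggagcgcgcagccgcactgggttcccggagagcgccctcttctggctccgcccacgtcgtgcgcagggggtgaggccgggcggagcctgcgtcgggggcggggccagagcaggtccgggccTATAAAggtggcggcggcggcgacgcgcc
RPS6KA4: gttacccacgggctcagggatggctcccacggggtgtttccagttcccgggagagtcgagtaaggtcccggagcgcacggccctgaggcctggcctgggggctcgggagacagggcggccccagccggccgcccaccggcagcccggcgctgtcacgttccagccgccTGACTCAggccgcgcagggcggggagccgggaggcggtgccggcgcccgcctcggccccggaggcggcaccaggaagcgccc
The windows were rich in G and C, at 77.2% for MKNK2 and 76.8% for RPS6KA4. Of 13 such windows at the 8 genes, 1 held TATAAA and 1 held TGACTCA on either strand, against 10.7% and 4.20% of the 35116 windows of all genes. The cAMP response element TGACGTCA, through which CREB acts, was in 0 of the 13 windows and in 1.65% of all windows. Its shorter form TGACG, which is contained in the longer one, was in 3 of the 13 (RPS6KA1, RPS6KA5 and RPS6KA6) and in 21.2% of all. The letters CCAAT were in 5 of the 13 windows (RPS6KA1, several windows of RPS6KA2, and RPS6KA5) and in 32.0% of all. The E-box CACGTG, the forkhead letters TGTTTAC and the ETS letters CCGGAAG were in 0 of the 13 windows and in 6.34%, 2.98% and 8.52% of all. These counts describe letters in short windows and say nothing about binding.

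Per length, the kinase genes spanned a wide range with DMSO. Levels were compared between genes as TMM-normalized CPM per kilobase of the gene's exons, and the order was RPS6KA4 (51.4 ± 1.70, SD, n = 3), MKNK2 (47.6 ± 2.70), RPS6KA1 (11.8 ± 0.518), RPS6KA3 (7.05 ± 0.398), MKNK1 (2.82 ± 0.112), RPS6KA2 (0.322 ± 0.0445), RPS6KA5 (0.164 ± 0.0224) and RPS6KA6, with 0 counts. RPS6KA4 and MKNK2 overlapped between libraries (50.4 to 53.4 and 45.1 to 50.5), and every other pair of neighbours was separated at these lengths. One gene therefore supplied nearly all of the MSK level and 1 gene nearly all of the MNK level, whereas the RSK level was shared by RPS6KA1 and RPS6KA3. With SCH772984 the order became MKNK2 (201 ± 11.2), RPS6KA4 (21.8 ± 1.18), RPS6KA1 (6.79 ± 0.271), MKNK1 (5.54 ± 0.456), RPS6KA3 (4.18 ± 0.255), RPS6KA2 (0.919 ± 0.181) and RPS6KA5 (0.268 ± 0.0762), with no overlap between neighbours at these lengths. With compound 1, MKNK2 (51.1 ± 5.32) and RPS6KA4 (45.5 ± 3.46) again overlapped. The exon length of RPS6KA5 is 27976 bases, far above the 3807 to 9925 of the others, and it lowers the value of this gene. The order depends on the length used. With the longest coding transcript as length, an alternative chosen after seeing the data, MKNK1 was at 8.11 with DMSO and overlapped with RPS6KA3 (7.77 to 8.42 and 8.32 to 9.19). With SCH772984, MKNK1 (14.4 to 16.8) was then above RPS6KA1 (12.1 to 13.1).

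**Figure D1:**
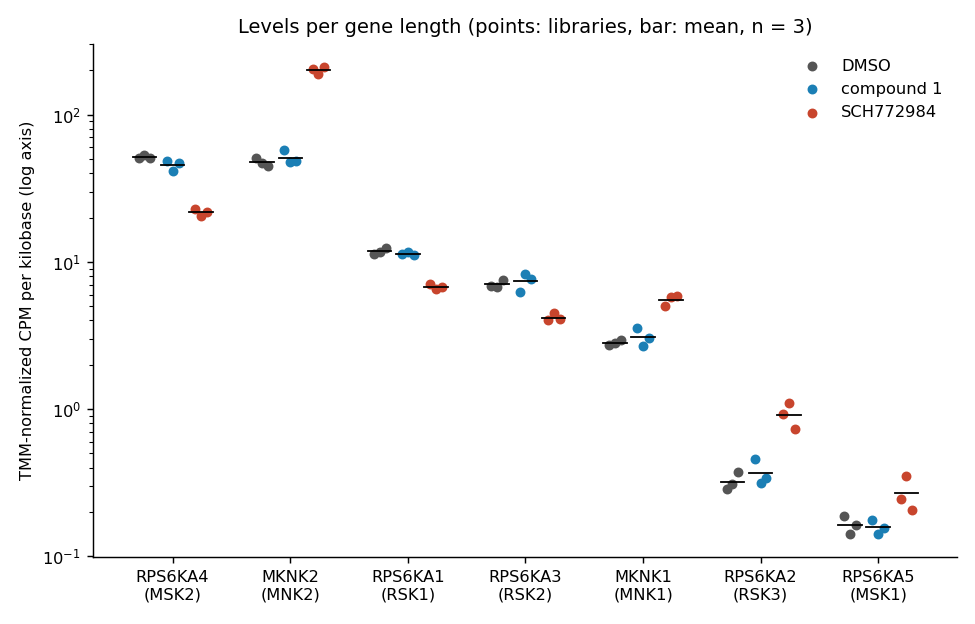
TMM-normalized CPM per kilobase (log axis) of the 7 kinase genes with counts in each group. Points are the 3 libraries of a group and bars their mean. RPS6KA4 and MKNK2 are level with DMSO at 51.4 and 47.6, and with SCH772984 MKNK2 is at 201 and RPS6KA4 at 21.8.

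RPS6KA1 encodes RSK1 (ENSG00000117676, GRCh38 chromosome 1, 26529761 to 26575030, plus strand). Its TMM-normalized level was 66.5, 68.8 and 72.6 CPM in the 3 DMSO libraries, 67.0, 69.0 and 65.1 CPM with compound 1 and 41.7, 38.5 and 39.7 CPM with SCH772984. All 3 SCH772984 libraries lay below the other 6. The log2 fold change with SCH772984 was -0.80 (SE 0.08, 95% confidence interval -0.96 to -0.64, adjusted p = 4.41e-12), a 1.74-fold fall. With compound 1 it was -0.05 (-0.22 to 0.13, adjusted p = 0.842), and the libraries overlapped with those of DMSO.

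RPS6KA3, on the X chromosome (ENSG00000177189, 20149911 to 20267519, minus strand), encodes RSK2, the kinase mutated in Coffin-Lowry syndrome. The level was 68.0, 67.5 and 74.5 CPM with DMSO, 62.3, 82.2 and 75.8 CPM with compound 1 and 39.7, 44.4 and 40.3 CPM with SCH772984. As for RPS6KA1, the SCH772984 libraries were the 3 lowest. The fall with SCH772984 was 1.69-fold (log2 fold change -0.76, SE 0.08, interval -0.92 to -0.60, adjusted p = 2.41e-11). Compound 1 libraries had the widest spread of the 3 groups (73.4 ± 10.1 CPM) and lay on both sides of DMSO, with a log2 fold change of 0.07 (-0.15 to 0.29, adjusted p = 0.790).

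RPS6KA2 encodes RSK3 and was the RSK gene that rose (ENSG00000071242, chromosome 6, 166409364 to 166906451, minus strand). It had 23, 23 and 28 counts with DMSO, 35, 25 and 27 with compound 1 and 92, 107 and 90 with SCH772984. The normalized levels were 2.36, 2.54 and 3.06 CPM with DMSO, 3.77, 2.61 and 2.81 CPM with compound 1 and 7.65, 9.03 and 6.04 CPM with SCH772984. Every SCH772984 library was above every other library, at a level that remained low. The rise was 2.82-fold with a wide interval of 2.05 to 3.89 (log2 fold change 1.50, SE 0.23, adjusted p = 1.74e-07). The log2 fold change with compound 1 was 0.21, and its interval of -0.37 to 0.78 was the widest of the 7 genes (adjusted p = 0.772). In the annotation, 60 exonic bases are shared with AL159163.1, which had 0 counts in all libraries.

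RPS6KA6, which encodes RSK4 (ENSG00000072133, X chromosome, 84058346 to 84187907, minus strand), had 0 counts in 8 libraries and 1 count in SCH772984 replicate 1. A count of 0 allows up to 3 counts, which is 0.216 to 0.317 CPM by the library totals (without TMM) and covers counting error only. No fold was computed.

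As a family, RSK mRNA fell with ERK inhibition and its make-up shifted towards RPS6KA2. The summed RSK level per length was 19.2 ± 0.938 with DMSO, 19.2 ± 1.11 with compound 1 and 11.9 ± 0.299 with SCH772984. RPS6KA2 supplied 1.55, 1.64 and 1.84% of it in the DMSO libraries and 7.72, 9.05 and 6.34% in the SCH772984 libraries. The share of RPS6KA1 was 61.0 to 62.2% with DMSO and 54.0 to 58.9% with SCH772984, without overlap, and that of RPS6KA3 overlapped (36.2 to 37.2% and 33.3 to 36.9%). Without division by length the RPS6KA3 shares did not overlap either (48.6 to 49.7% and 44.6 to 48.3%). For groups of 3 the two-sided exact permutation test cannot give less than p = 0.1, which is the value for the shares of RPS6KA2 and RPS6KA1, and p was 0.2 for RPS6KA3 per length. All RSK shares with compound 1 overlapped with DMSO.

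RPS6KA4 encodes MSK2 (ENSG00000162302, chromosome 11, 64359148 to 64372215, plus strand), and with MKNK2 it was one of the 2 most abundant kinase genes per length in DMSO-treated cells. Its level was 192, 203 and 192 CPM with DMSO, 183, 158 and 178 CPM with compound 1 and 87.4, 78.4 and 82.6 CPM with SCH772984. The 3 groups did not overlap, with SCH772984 far below the others. ERK inhibition lowered it 2.37-fold (log2 fold change -1.25, SE 0.07, interval -1.38 to -1.11, adjusted p = 4.50e-21), and 924 of the 13834 tested genes had a lower fold change. By CPM it went from rank 1098 to rank 2477 among 19951 protein-coding genes.

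With compound 1, RPS6KA4 was the kinase gene nearest to the threshold. Its log2 fold change was -0.17 (SE 0.07, interval -0.33 to -0.02), with an unadjusted p of 0.0270 in edgeR's test and an adjusted p of 0.257, so it was not called. The highest compound 1 library, at 183 CPM, was below the lowest DMSO library, at 192 CPM. Without compound 1 replicate 1, the library that stood apart, the log2 fold change was -0.21 and the adjusted p was 0.0164, in a range of 0.0164 to 0.641 over the alternatives. With that library left out, the comparison called 453 genes higher and 798 lower over all genes, against 63 and 48 with it.

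RPS6KA5, the gene of MSK1 (ENSG00000100784, chromosome 14, 90847862 to 91060636, minus strand), was scarce. It had 51, 36 and 42 counts with DMSO, 46, 38 and 42 with compound 1 and 82, 117 and 86 with SCH772984. Normalized, this was 5.23, 3.98 and 4.60 CPM, then 4.95, 3.97 and 4.37 CPM, then 6.82, 9.87 and 5.77 CPM. SCH772984 replicate 2 was the highest by a wide margin, and the 3 libraries were above all others. The log2 fold change with SCH772984 was 0.68 (SE 0.21, interval 0.25 to 1.11, adjusted p = 0.00398). This call rested on replicate 2, since without it the log2 fold change was 0.43 and the adjusted p was 0.0950, in a range of 0.000444 to 0.0950 over the alternatives. With compound 1 the log2 fold change was -0.06 (-0.51 to 0.40, adjusted p = 0.932). RPS6KA5 shares 304 exonic bases, 1.09% of its exon length, with DGLUCY on the opposite strand, which had 153 to 821 counts, and the strand setting of the counting is not given in the sources used here.

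MSK mRNA as a whole followed RPS6KA4. The summed level per length was 51.6 ± 1.68 with DMSO, 45.6 ± 3.48 with compound 1 and 22.0 ± 1.13 with SCH772984. RPS6KA5 supplied 0.265 to 0.369% of it with DMSO, 0.332 to 0.367% with compound 1 and 0.942 to 1.69% with SCH772984 (exact permutation p = 0.1 for SCH772984, the smallest possible). RPS6KA4 made up 98.8 ± 0.401% of the MSK level with SCH772984. These shares rest on the long exon length of RPS6KA5, and without division by length RPS6KA5 was 1.92 to 2.65% of MSK with DMSO and 6.53 to 11.2% with SCH772984.

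MKNK2 encodes MNK2, the family member with high basal activity, and lies on chromosome 19 (ENSG00000099875, 2037465 to 2051244, minus strand). It had 2572, 2234 and 2153 counts with DMSO, 2774, 2385 and 2425 with compound 1 and 12909, 11657 and 16298 with SCH772984. The normalized levels were 264, 247 and 236 CPM with DMSO, 299, 249 and 252 CPM with compound 1 and 1073, 984 and 1094 CPM with SCH772984. The lowest SCH772984 library was thus more than 3 times the highest of the other 6. The rise with SCH772984 was 4.21-fold, with an interval of 3.85 to 4.60 (log2 fold change 2.07, SE 0.06, adjusted p = 4.30e-30). MKNK2 moved from rank 810 to rank 71 among the 19951 protein-coding genes by CPM, while 828 of the 13834 tested genes had a higher fold change. Compound 1 gave a log2 fold change of 0.10 (-0.06 to 0.26, adjusted p = 0.573), and its libraries overlapped with those of DMSO.

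MKNK1, the gene of MNK1, rose as well (ENSG00000079277, chromosome 1, 46557408 to 46616843, minus strand). The level was 21.8, 22.9 and 23.6 CPM with DMSO, 28.7, 21.7 and 24.5 CPM with compound 1 and 40.5, 46.2 and 47.3 CPM with SCH772984. All SCH772984 libraries were above the others, and compound 1 replicate 1 was the highest of the remaining 6. The log2 fold change was 0.97 with SCH772984 (SE 0.10, interval 0.77 to 1.16, adjusted p = 3.49e-12), a 1.96-fold rise, and 0.14 with compound 1 (-0.12 to 0.39, adjusted p = 0.638). In the annotation, MKNK1 shares 133 exonic bases with MOB3C, which had 20 to 103 counts, and 195 with the antisense gene MKNK1-AS1, which had 1 to 19.

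The balance of the MNK genes moved further towards MKNK2. Per length, MKNK2 was 18.7, 16.7 and 15.4 times MKNK1 in the DMSO libraries, 16.1, 17.7 and 15.9 times with compound 1 and 41.0, 32.9 and 35.7 times with SCH772984. With the longest coding transcript as length the ratios were lower, 7.42 to 8.99 with DMSO and 15.8 to 19.7 with SCH772984. MKNK2 made up 94.4 ± 0.506% of the MNK level with DMSO, 94.3 ± 0.320% with compound 1 and 97.3 ± 0.286% with SCH772984 (exact permutation p = 0.1 for SCH772984, the smallest possible, and 0.7 for compound 1). By the longest coding transcript the MKNK2 share was 89.0 ± 0.936% with DMSO and 94.6 ± 0.562% with SCH772984. The summed MNK level was 50.5 ± 2.59 with DMSO, 54.2 ± 5.74 with compound 1 and 207 ± 11.1 with SCH772984.

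**Figure D2:**
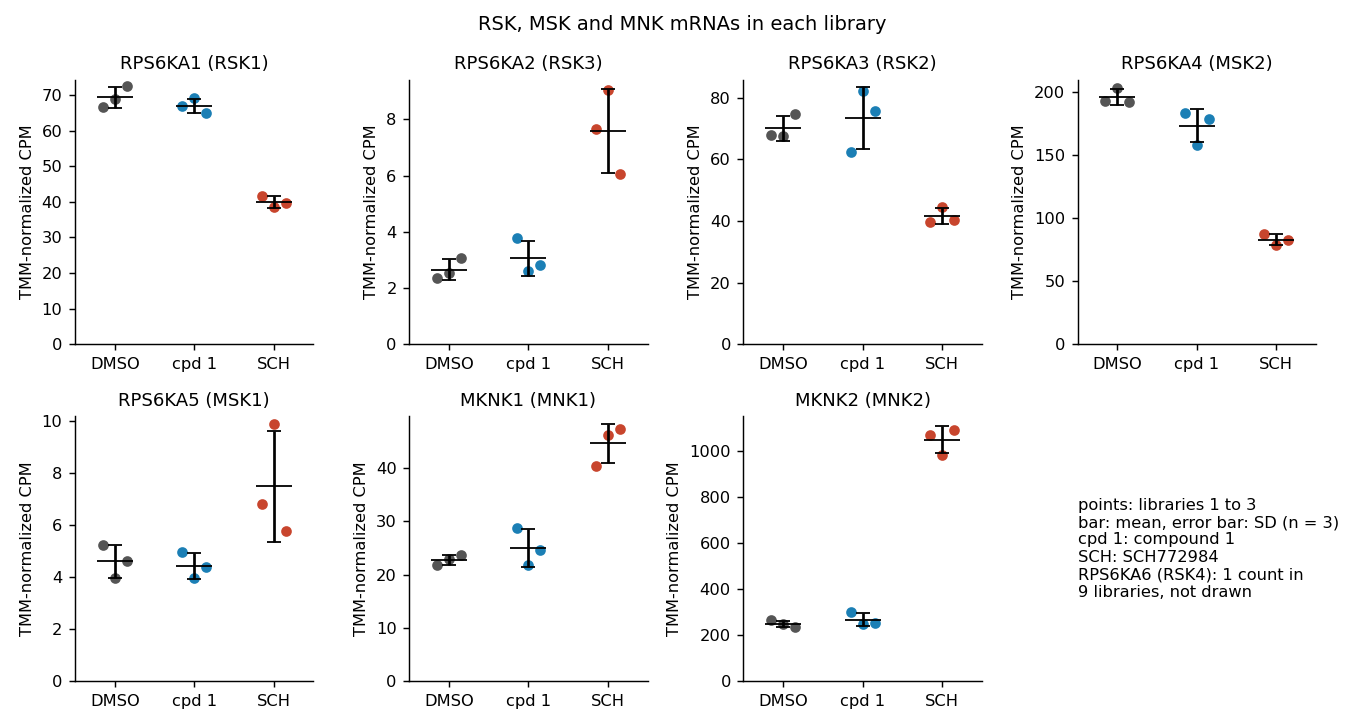
TMM-normalized CPM of 7 kinase genes in each library (points) with mean and SD (n = 3), on axes that start at 0. RPS6KA1, RPS6KA3 and RPS6KA4 are lower with SCH772984 and RPS6KA2, RPS6KA5, MKNK1 and MKNK2 are higher, and in each panel the SCH772984 points lie apart from the other 6.

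The inhibitors were also compared directly, since a call with one and not with the other does not test their difference. Against compound 1, SCH772984 gave 4 higher and 3 lower genes of the 7, where 66.3% of the 13863 tested genes were called, 33.7% higher and 32.6% lower. The log2 fold changes were 1.98 for MKNK2 (SE 0.09, adjusted p = 1.10e-13), 1.30 for RPS6KA2 (SE 0.23, adjusted p = 5.43e-05), 0.84 for MKNK1 (SE 0.12, adjusted p = 2.48e-06) and 0.75 for RPS6KA5 (SE 0.23, adjusted p = 0.00643). They were -1.06 for RPS6KA4 (SE 0.09, adjusted p = 1.73e-09), -0.82 for RPS6KA3 (SE 0.11, adjusted p = 1.38e-06) and -0.75 for RPS6KA1 (SE 0.10, adjusted p = 8.07e-07). Each of the 7 genes thus stood at different levels under the 2 inhibitors. For RPS6KA5 the difference was not called without SCH772984 replicate 2 (log2 fold change 0.51, adjusted p = 0.0761, in a range of 0.00211 to 0.0761 over the alternatives). The comparisons of each inhibitor with DMSO share the same DMSO libraries.

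**Figure D3:**
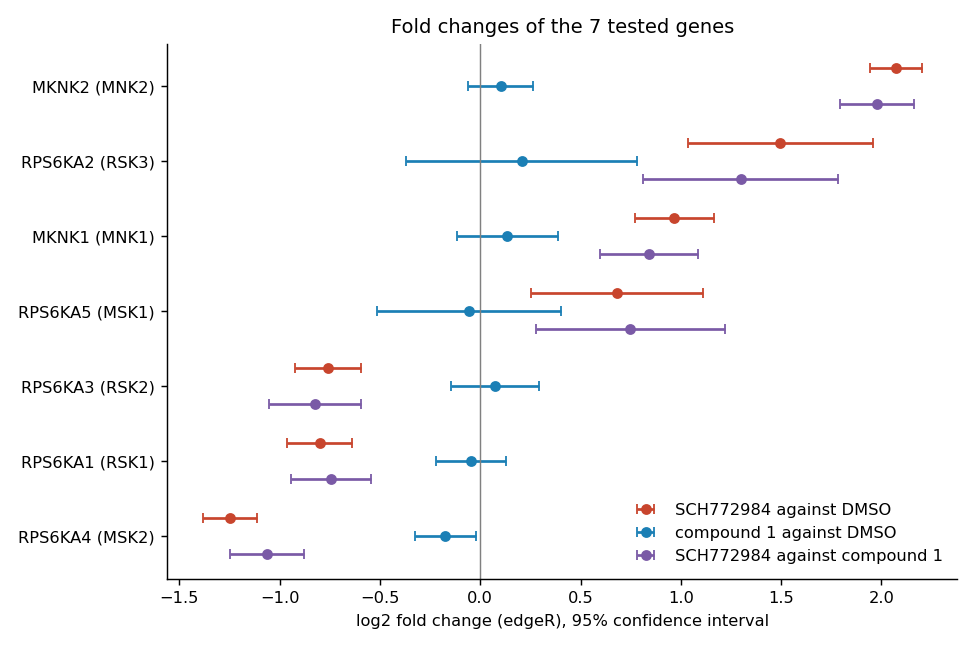
Log2 fold changes of the 7 tested kinase genes with 95% confidence intervals from edgeR, for each inhibitor against DMSO and for SCH772984 against compound 1. MKNK2 is highest at 2.07 with SCH772984 and RPS6KA4 lowest at -1.25, and with compound 1 the RPS6KA4 interval (-0.33 to -0.02) alone leaves out 0.

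Set among all tested genes, the changes of the kinase genes were moderate to large with SCH772984 and of ordinary size with compound 1. The median absolute log2 fold change over all genes was 0.59 with SCH772984, and all 7 kinase genes exceeded it. For RPS6KA5 this rested on SCH772984 replicate 2, since its log2 fold change was 0.68 with that library and 0.43 without it. With compound 1 the median was 0.13, and 3 of the 7 genes, RPS6KA2, RPS6KA4 and MKNK1, exceeded it. The table has no spike-in scale in use, so each value is measured against the majority of genes. When libraries were scaled by their totals in place of TMM, the median over all genes moved up by 0.17 on the log2 scale with SCH772984. None of the 7 genes changed direction in that comparison. A shift of that size could not reverse any of them, since the smallest of the 7 changes was 0.68, for RPS6KA5.

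**Figure D4:**
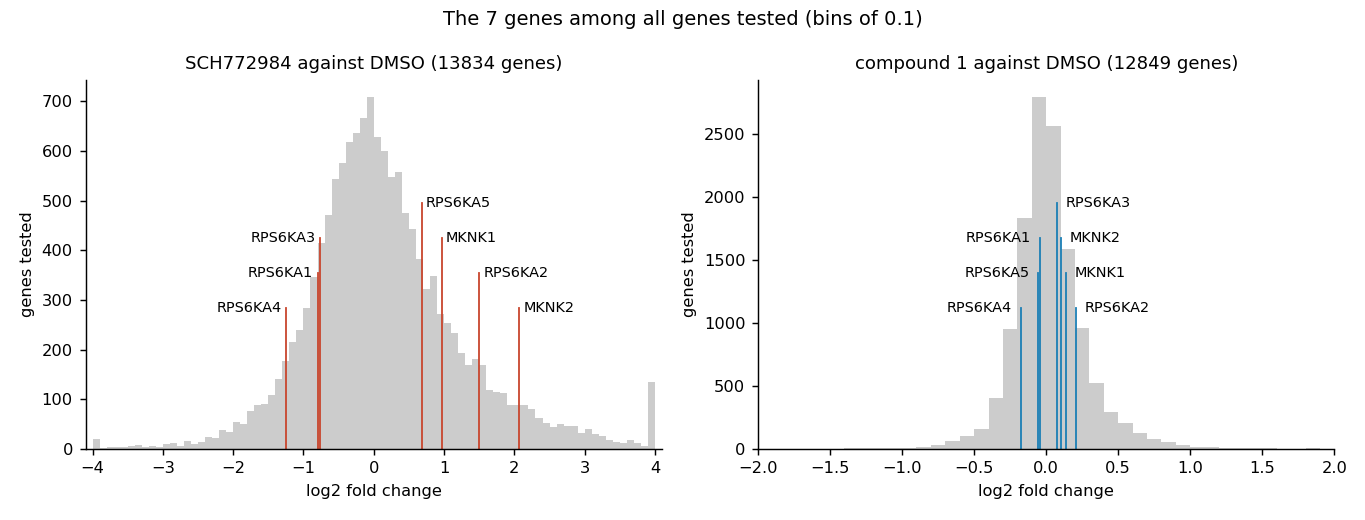
Number of tested genes by log2 fold change (grey, bins of 0.1) with the 7 kinase genes as lines, red where the adjusted p was under 0.05 and blue otherwise. Left, SCH772984 against DMSO, where genes beyond 4 in either direction are placed in the end bins. Right, compound 1 against DMSO, drawn from -2 to 2.

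The genes whose levels followed MKNK2 most closely over the 9 libraries were MXD4, COL6A2 and PSAP. MXD4 encodes a repressor of the MAX network, COL6A2 a collagen VI chain and PSAP the precursor of the saposins, and their Pearson correlations with MKNK2 in log2 CPM were 0.999, 0.999 and 0.998. Their log2 fold changes with SCH772984 were 1.95, 1.88 and 1.33. The 9 libraries fall into the treatment groups, so these values describe a shared difference between SCH772984 and the other 6 libraries, and 1108 of the 9953 protein-coding genes considered had a correlation above 0.95.

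Of 18 genes of kinases and partners upstream of RSK, MSK and MNK, 17 were tested with SCH772984, and 5 were higher, 4 were lower and 8 were not called, with a median log2 fold change of 0.05. The median over all tested genes was 0.03 with SCH772984 and 0.00 with compound 1. The shares of all tested genes called higher and lower with SCH772984 were 37.2% and 35.5%. MAPK3 (ERK1) went from 42.0 to 67.2 CPM (log2 fold change 0.67, adjusted p = 2.02e-09). The MEK genes moved apart, since MAP2K2 (MEK2) rose by 0.73 (adjusted p = 3.55e-14) and MAP2K1 (MEK1) fell by 0.63 on the log2 scale (adjusted p = 2.77e-07). MAPK11, a p38 kinase, rose by 0.89 (adjusted p = 8.76e-06), and PEA15, which binds ERK and RSK2 in the cytoplasm, fell by 0.91 (adjusted p = 4.58e-15). With compound 1, edgeR called 0 of 16 tested (0 higher and 1 lower at an unadjusted p under 0.05, against 7.35% and 7.69% of all tested genes), with a log2 fold change of -0.15 for MAPK3 (adjusted p = 0.527).

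Among 13 related kinases, chiefly of the AKT, SGK, S6K and MAPKAPK groups, 12 were tested with SCH772984, of which 3 were higher and 6 were lower, against 37.2% and 35.5% of all tested genes (median log2 fold change -0.27). AKT1 and MAPKAPK2, an effector of p38, were the called genes with the lowest values, at -1.10 (adjusted p = 2.88e-20) and -0.86 (adjusted p = 1.04e-13). RPS6KL1, a little-studied relative of the S6 kinases, was at 0.85 (adjusted p = 6.93e-05). None of the 12 was called by edgeR with compound 1, and 0 passed at an unadjusted p under 0.05.

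The genes encoding 25 substrates of RSK, MSK or MNK were all tested with SCH772984, and 13 were lower, 5 were higher and 7 were not called, against 35.5% lower and 37.2% higher over all tested genes (median log2 fold change -0.36). EIF4E, the MNK substrate, went from 62.0 to 34.7 CPM (log2 fold change -0.85, adjusted p = 1.40e-11), opposite in direction to both MNK genes. CREB1, a substrate of MSK and RSK, was at 42.4 and 40.5 CPM (-0.08, adjusted p = 0.475). Among called genes with an average of at least 5 CPM, the lowest and highest values belonged to BUB1, a mitotic checkpoint kinase (-1.67, adjusted p = 1.91e-26), SPRY2, a feedback inhibitor of receptor signalling (-1.27, adjusted p = 4.04e-20), TSC2, a subunit of the complex that restrains mTORC1 (0.59, adjusted p = 1.97e-09), and PDCD4, an inhibitor of the helicase eIF4A (1.44, adjusted p = 1.11e-18, from 22.4 to 60.8 CPM). With compound 1, 1 substrate gene was higher, NFKBIA, which encodes the NF-κB inhibitor IκBα (0.37, adjusted p = 0.0383), and 1 was lower, FLNA, which encodes filamin A (-0.42, adjusted p = 0.00477). These were the calls over all 6 lists with compound 1, and the counts moved with single libraries, to 4 higher and 10 lower without compound 1 replicate 1 and to 0 and 0 without DMSO replicate 1 or 2.

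Around MNK, 12 of 14 genes of the cap-binding translation machinery were tested with SCH772984, and 9 were lower and 2 were higher, against 35.5% and 37.2% of all tested genes (median log2 fold change -0.57). EIF4EBP1, which holds eIF4E in check, fell by 1.90 on the log2 scale (adjusted p = 5.52e-23) and EIF4G2, a relative of the eIF4G scaffold, fell by 1.01 (adjusted p = 3.27e-19). The higher genes were PDCD4 and EIF4A2 (0.24, adjusted p = 0.00209). Compound 1 gave 0 calls among the 12 in edgeR (1 higher and 1 lower at an unadjusted p under 0.05, against 7.35% and 7.69% of all tested genes), with a log2 fold change of 0.10 for EIF4E (adjusted p = 0.668).

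Around MSK, 11 of 13 immediate early and related genes linked to MSK and CREB were tested with SCH772984, with 7 lower and 2 higher, against 35.5% and 37.2% of all tested genes (median log2 fold change -0.58). EGR1 (-3.45, adjusted p = 8.17e-18) and IER2 (-2.22, adjusted p = 1.83e-23) were lowest, and ATF3 (1.50, adjusted p = 1.24e-08) and JUNB (0.71, adjusted p = 8.40e-08) were the higher genes. The directions in this list were therefore mixed. None of the 11 was called by edgeR with compound 1, where the median was 0.18 and 4 were higher and 1 lower at an unadjusted p under 0.05, against 7.35% and 7.69% of all tested genes.

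Transcripts that report ERK activity served as a check of the treatment, and EGR1 and IER3 are in this list and in the previous one. Of 15 tested with SCH772984, 14 were lower and 1 was higher, against 35.5% and 37.2% of all tested genes, with a median log2 fold change of -3.51. SPRY4, a feedback inhibitor of the pathway, went from 232 to 2.01 CPM (-6.81, adjusted p = 6.44e-40), and ETV5, an ETS factor, fell by 6.54 on the log2 scale (adjusted p = 1.55e-34). The ERK phosphatase gene DUSP6 was at 4.15 CPM with DMSO and 0.0281 CPM with SCH772984, where every library was under 3 counts. EPHA4 was the higher gene (1.48, adjusted p = 2.20e-25). With compound 1, edgeR called 0 of the 15 (2 higher and 4 lower at an unadjusted p under 0.05, against 7.35% and 7.69% of all tested genes), and SPRY4 was at 0.06 (adjusted p = 0.703).

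**Figure D5:**
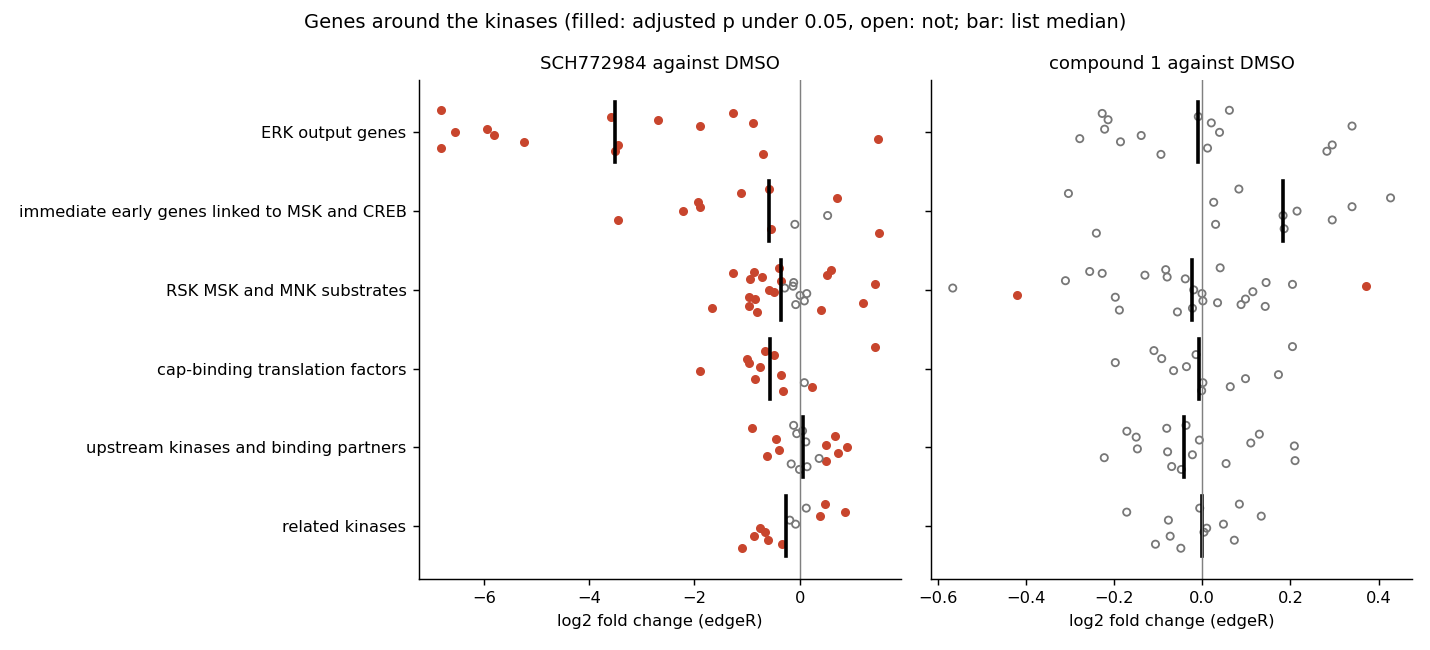
Log2 fold changes of the tested genes of 6 lists around the kinases for each inhibitor against DMSO, filled where the adjusted p was under 0.05 and open otherwise, with bars at list medians. The horizontal scales of the panels differ. With SCH772984 the ERK output list has the lowest median, -3.51, and DUSP6 is drawn at its fitted value, which is no bound. With compound 1 the filled points are NFKBIA at 0.37 and FLNA at -0.42.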

How the data were processed

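RNA was sequenced by Novogene, and the authors deposited raw read counts per gene for 58735 genes in 9 libraries, without normalization. Per the labels' processing notes, HISAT2 2.0.5, featureCounts 1.5.0-p3 and hg38 were used; the strand setting is not given in the sources used here. Gene coordinates matched GENCODE release 29. Libraries were grouped by their labels.

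Each pair of groups was fitted separately with edgeR 4.0.16 in R 4.3.3 (TMM, filterByExpr with a minimum count of 10 and a minimum total of 15, robust quasi-likelihood test, Benjamini-Hochberg adjustment over all tested genes). A gene was called at an adjusted p under 0.05. The legend in the paper gives a p threshold without naming an adjustment, so the unadjusted call was an alternative. Standard errors were the absolute log2 fold change over the root of F. Levels were TMM-normalized CPM over all 9 libraries, divided by the exon length in the table for comparisons between genes. Shares were compared by exact permutation. The procedure was tested on simulated counts.

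The kinases and lists were chosen with earlier results of these data known, and some list genes are in more than 1 list. Genes named were all kinases, the called genes with the largest changes in each list (up to a pair in each direction, at an average of at least 5 CPM), MAPK3, EIF4E, CREB1, DUSP6 and SPRY4, and the 3 genes most like the kinase gene that changed most. Another gene that the rule names is not reported here. Alternatives were other scaling (library size, RLE), filters, 1 fit for all libraries, a replicate block, protein-coding genes only, DESeq2 1.42.0, leaving out each library and, chosen after seeing the data, the longest coding transcript as length. Promoter windows came from RefSeq (GRCh38.p14).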

Additional observations from a re-analysis of the deposited data

How the results depend on the processing

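Over 15 alternatives, all but 1 of them with an adjusted p, the counts with SCH772984 stayed at 3 to 4 higher and 3 lower of the 7 kinase genes, against DMSO and against compound 1. RPS6KA5 was the gene that lost its call, without SCH772984 replicate 2. With compound 1 the count stayed at 0 higher, and lower genes numbered 0 to 1 with 1 library left out and 1 at an unadjusted p, the gene being RPS6KA4. Uncalled values with compound 1 changed sign with 1 library left out, over log2 ranges of -0.153 to 0.0448 for RPS6KA5 (0.0105 without compound 1 replicate 2) and -0.0228 to 0.180 for RPS6KA3. So did share differences from DMSO, in percentage points, with 1 library left out. They ranged from -0.00308 to 0.479 for RPS6KA2, from -0.0511 to 0.000447 for RPS6KA4 and from -0.338 to 0.167 for MKNK2 (0.0105 without compound 1 replicate 3).

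Over the pathway lists, SCH772984 gave 17 higher genes, or 26 with library-size scaling. Compound 1 gave 1 higher and 1 lower, or 2 and 3 without a filter, 2 and 3 with the replicate block, 7 and 10 at an unadjusted p, and 0 to 4 and 0 to 10 with 1 library left out. Over all genes, compound 1 gave 63 higher and 48 lower, or 193 and 219 with the replicate block, 189 and 228 without a filter, 117 and 119 with DESeq2, 91 and 97 in 1 fit, 85 and 25 with library-size scaling, and from 5 and 3 (without DMSO replicate 2) to 453 and 798 (without compound 1 replicate 1). With library-size scaling SCH772984 gave 6242 higher and 3911 lower, in place of 5150 and 4916. Deviations of same-numbered libraries from their group means had low correlations. These were 0.00179 to 0.0436 for SCH772984 and DMSO, -0.0189 to 0.110 for compound 1 and DMSO, and -0.0893 to 0.130 for SCH772984 and compound 1. Differently numbered libraries of SCH772984 and compound 1 reached 0.178. The numbers were therefore not taken to pair the libraries, although the block raised the calls over all genes with compound 1. The replicate block changed no call of a kinase gene.

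Levels per kilobase with DMSO were 11.2 (RPS6KA1), 49.0 (RPS6KA4) and 2.69 (MKNK1) by library totals. With the longest coding transcript as length they were 21.8 (RPS6KA1), 0.443 (RPS6KA2), 8.63 (RPS6KA3), 62.7 (RPS6KA4), 8.11 (MKNK1) and 65.9 (MKNK2), which puts the mean of MKNK2 above that of RPS6KA4. Differences in share between SCH772984 and DMSO kept their direction, at up to -6.02 percentage points for RPS6KA4 (without division by length) and 5.57 for MKNK2 (longest transcript). Depth limits RPS6KA2, RPS6KA5 and RPS6KA6, which had the fewest counts.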
